A study of Mus musculus with 12 samples.

Results

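Ribosome biogenesis in Myc-driven mammary tumours was examined through 40 genes whose products work in the nucleolus, compared between tumours that lacked the kinase gene Hunk and tumours that kept it. The genes were chosen by name, as nucleolar factors of ribosome production known as targets of Myc, and each was read from that probe set of its symbol whose mean over the 12 arrays was highest. Of these 40 genes, 37 had a probe set that lists their symbol alone, among 12393 genes named that way, and 36 passed the filter on low signal, among 6825 genes that were tested. Rrp9, a protein of box C/D small nucleolar particles, was below the filter at a mean log2 signal of 1.61 and lay at the array background on all 12 arrays. Dkc1 and Nob1 had no such probe set, and Mrto4 was listed only by a probe set that names other sequences too, so these 3 genes have no value here.

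The series holds 12 Affymetrix arrays of mammary gland tumours from female FVB mice, 6 from Hunk knockout animals and 6 from Hunk wild-type animals. Mice of both groups carried the MMTV-c-myc transgene, in which a mammary tumour virus promoter drives Myc mainly in mammary epithelium, and had been mated before tumours were followed. In the knockout the putative promoter and the first exon of Hunk had been replaced by a neomycin cassette in the germline, so the gene was absent from every cell of the animal and not from the tumour cells alone. The labels give no age at collection, and they do not say that the arrays of a group come from separate animals, so the p-values measure only the spread between these arrays. The Hunk probe set lay at the array background on 6 of 6 knockout arrays, with a mean log2 signal of 2.95 ± 0.17 (SD, n = 6). It did so on 2 of 6 wild-type arrays, where the mean was 4.21 ± 1.05 (SD, n = 6). The two-sided exact permutation p was 0.0108 and the limma adjusted p, over all 12393 named genes, was 0.181; no fold is given, because the knockout level is at background. Of 13 luminal epithelial markers, 11 were above background on at least 1 array, Krt18 among them at a mean log2 signal of 12.02 in the knockout and 12.2 in the wild type, while Esr1 and Foxa1 were at background on every array. These are bulk tumour samples, in which fewer cells of a type and less RNA per cell cannot be told apart.

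A ribosome begins in the nucleolus, where RNA polymerase I transcribes the precursor of the ribosomal RNAs. Small nucleolar ribonucleoproteins then modify that precursor, those of the box C/D class by methylating riboses and those of the box H/ACA class by converting uridines to pseudouridines, and separate sets of factors cut, fold and assemble it into the small and the large subunit. Myc binds the sequence CACGTG, the E-box, with its partner Max, and genes of ribosome production are among its best known targets.

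To show what the promoters of these genes hold, the window from 250 bases before to 50 bases after each gene's start was searched in the RefSeq table of the GRCm38.p6 build, which has a window for 36 of the 40 genes and none for Rrs1, Bop1, Fbl and Npm1. CACGTG, which reads the same on both strands, was in a window of 10 of the 36 genes, or 27.8%, against 8.09% of the 27025 genes in the table. CACGCG, a variant of the E-box searched together with its reverse complement CGCGTG, was in a window of 10 of the 36 genes, again 27.8%, against 10.5% of all genes. Both shares for all genes cover every gene of the table, whether or not it was measured here. Shares among the 6825 tested genes, or among genes with similar promoters, were not taken. The 4 windows below are those of the E-box genes with the smallest p for genotype, Tsr1 and Nop2, and with the steepest slope on the Myc level, Utp18 and Mybbp1a. They lie at chr11:74897830-74898129 on the plus strand for Tsr1, chr6:125131633-125131932 on the plus strand for Nop2, chr11:93885717-93886016 on the minus strand for Utp18 and chr11:72441077-72441376 on the plus strand for Mybbp1a, and each runs 5′ to 3′ along its gene with the E-box in capitals.
Tsr1: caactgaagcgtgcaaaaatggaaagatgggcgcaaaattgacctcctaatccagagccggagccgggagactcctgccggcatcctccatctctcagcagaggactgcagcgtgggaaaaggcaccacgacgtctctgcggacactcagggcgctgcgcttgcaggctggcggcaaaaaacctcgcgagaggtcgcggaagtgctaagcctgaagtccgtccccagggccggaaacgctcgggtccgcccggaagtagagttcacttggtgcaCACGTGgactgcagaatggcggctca
Nop2: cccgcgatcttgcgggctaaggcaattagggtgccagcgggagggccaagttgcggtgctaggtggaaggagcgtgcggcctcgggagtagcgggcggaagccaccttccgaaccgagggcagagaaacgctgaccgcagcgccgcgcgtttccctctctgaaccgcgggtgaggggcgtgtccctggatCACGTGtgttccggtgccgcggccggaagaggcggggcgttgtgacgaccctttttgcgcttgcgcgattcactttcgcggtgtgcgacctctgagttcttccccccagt
Utp18: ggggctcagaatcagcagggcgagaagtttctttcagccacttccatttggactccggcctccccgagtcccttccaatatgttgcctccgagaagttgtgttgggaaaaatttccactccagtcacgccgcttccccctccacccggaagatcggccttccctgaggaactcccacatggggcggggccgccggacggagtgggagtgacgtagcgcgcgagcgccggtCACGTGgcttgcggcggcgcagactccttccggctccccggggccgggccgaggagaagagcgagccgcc
Mybbp1a: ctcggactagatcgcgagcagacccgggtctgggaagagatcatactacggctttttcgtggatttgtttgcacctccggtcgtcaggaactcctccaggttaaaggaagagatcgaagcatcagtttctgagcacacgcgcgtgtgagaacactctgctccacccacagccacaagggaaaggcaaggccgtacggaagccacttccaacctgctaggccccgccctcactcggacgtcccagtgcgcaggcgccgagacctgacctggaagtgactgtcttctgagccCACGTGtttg
The E-box began 60 bases before the start in Nop2 and 20 bases before it in Utp18, and 24 bases after it in Tsr1 and 40 bases after it in Mybbp1a. All 10 E-box genes passed the filter, and all 10 had a lower mean in the knockout, with a median log2 change of -0.27 and a range from -0.39 to -0.13. The 22 tested genes with a window but no E-box had a median log2 change of -0.23 and ranged from -0.60 to 0.33, and 18 of them had a lower mean in the knockout. A match describes the letters in the window and is not evidence of binding.

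Most of the nucleolar genes had a lower mean in the Hunk knockout tumours, by small amounts. Of the 36 tested genes, 32 had a log2 change (knockout minus wild type) below 0, or 88.9%, where 49.2% of all tested genes did, and only Bysl, Heatr1, Ppan and Nop10 were above 0. The median log2 change was -0.25, a 1.19-fold lower level, and its quartiles were -0.39 and -0.15, beside a median of 0.01 and quartiles of -0.24 and 0.18 for all tested genes. With the filter raised to the 75th percentile of the probe-set means, 35 of the genes remained. Their median was -0.26, beside -0.05 for all genes that passed this filter. 17 of the 36 genes were at least 1.2-fold lower and 2 were at least 1.5-fold lower. On the gene level none passed an adjusted p of 0.05 in limma in either direction, where 1.68% of all tested genes were called lower and 1.66% higher, or 3.34% in either direction. Without adjustment, 7 of the 36 genes had a limma p under 0.05, all lower and 19.4% of the 36, beside 10.5% of all tested genes lower and 8.97% higher, and 6 had an exact permutation p under 0.05, again all lower, beside 10.2% lower and 9.68% higher. In none of the 36 did the groups separate without overlap, as 1.44% of all tested genes did with the knockout lower and 1.71% with the knockout higher.

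**Figure D1:**
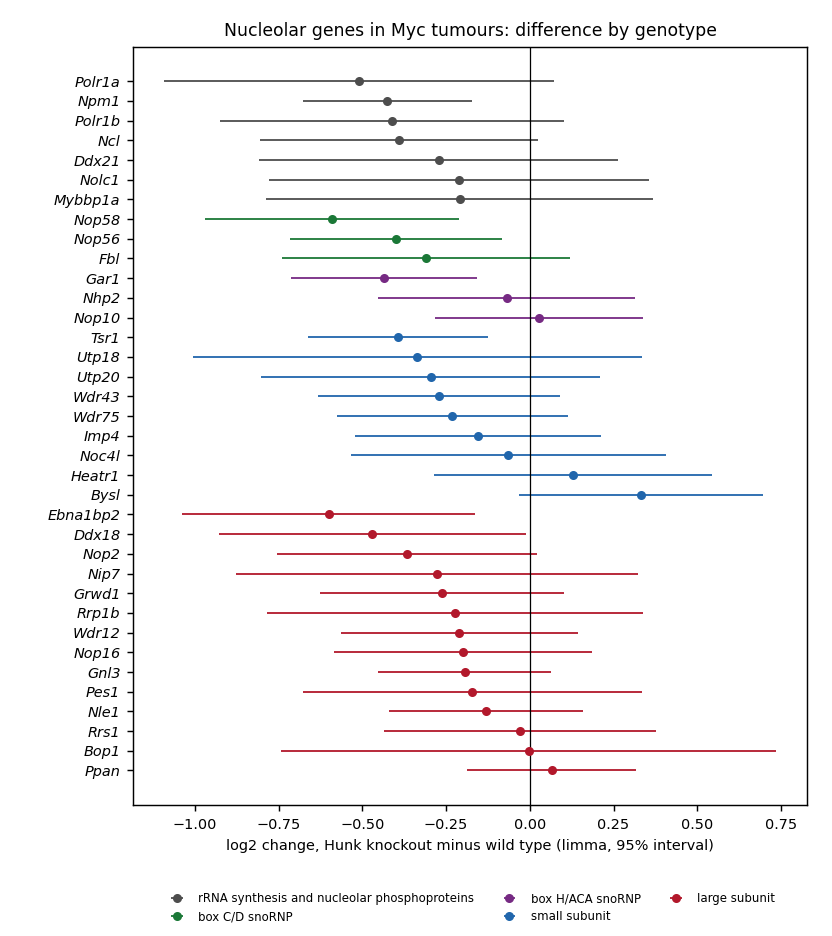
Log2 change (Hunk knockout minus wild type) of the 36 tested nucleolar genes with 95% intervals from limma, coloured by role. 32 points lie below 0, and 7 intervals exclude 0, all of them on the lower side.

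The genes of ribosomal RNA synthesis and the large nucleolar phosphoproteins were lower together. All 7 had a negative log2 change, with a median of -0.39, and none passed the adjusted threshold. Npm1, nucleophosmin, an abundant nucleolar chaperone for ribosomal proteins, measured 12.4 at the lowest, 12.7 at the median and 13.09 at the highest knockout array, and 13.01, 13.1 and 13.4 in the wild type. 5 of the 6 knockout arrays lay below every wild-type array, and the groups overlapped only through knockout array 2. Its log2 change was -0.43 (SE 0.12, 1.34-fold lower, limma adjusted p = 0.067), the smallest p of the 36 genes. Of the 12 fits in limma that left out 1 array, it passed the threshold in 1, the one without knockout array 2 (adjusted p = 0.0378), and in the other 11 the adjusted p ran from 0.0816 to 0.143. Ncl, nucleolin, which binds nascent ribosomal RNA, ranged from 12.05 over 12.6 to 12.9 in the knockout and from 12.4 over 12.97 to 13.4 in the wild type. The Ncl groups overlapped over much of their range, and its log2 change was -0.39 (SE 0.19, limma adjusted p = 0.286). Polr1a and Polr1b, the catalytic pair of subunits of RNA polymerase I, had log2 changes of -0.51 (SE 0.27) and -0.41 (SE 0.24). Ddx21, an RNA helicase of the nucleolus, Nolc1, a chaperone of small nucleolar particles that is also tied to polymerase I, and Mybbp1a, a nucleolar partner of polymerase I, had log2 changes of -0.27, -0.21 and -0.21.

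Second probe sets of Npm1 and Ncl gave the clearest differences of the nucleolar genes. The 37 genes are covered by 69 probe sets, of which 62 were tested and 53 had a negative log2 change. 2 of the 62 passed the adjusted threshold, both lower in the knockout, which is 3.23% where 1.28% of all 11313 tested probe sets were called lower and 1.18% higher. The second probe set of Npm1 (1432416_a_at) ranged from 12.1 over 12.4 to 12.5 in the knockout and from 12.6 over 12.9 to 13.3 in the wild type. All 6 knockout arrays lay below all 6 wild-type arrays, and this probe set fell by 0.60 on the log2 scale (SE 0.12, 1.51-fold lower, limma adjusted p = 0.0254). A second probe set of Ncl (1415773_at) ranged from 10.4 over 11.05 to 11.4 in the knockout and from 11.5 over 11.8 to 11.97 in the wild type. Here too the groups did not overlap, and the signal fell by 0.80 on the log2 scale (SE 0.16, 1.74-fold lower, limma adjusted p = 0.0259). A probe set of Polr1a (log2 change -0.57, SE 0.15, limma adjusted p = 0.0592), not the one used for the gene, was the only other one of the 62 whose groups did not overlap, where 1.38% of all tested probe sets did not overlap with the knockout lower and 1.49% with the knockout higher. The calls of both probe sets were close to the threshold. Each was kept in 6 of the 12 fits that left out 1 array: the adjusted p in limma ran from 0.0144 to 0.0554 for Npm1 and from 0.0209 to 0.0587 for Ncl. Both calls were lost without knockout array 4 or 5 or wild-type array 3, 4 or 5, that of Npm1 also without knockout array 6 and that of Ncl also without wild-type array 6. The other probe sets of Ncl had log2 changes of -0.39, -0.24 and -0.56, so that all 4 were negative, and both probe sets of Npm1 were negative.

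The core proteins of both classes of small nucleolar particle were measured by 3 tested genes each, none of which passed the adjusted threshold, and the classes were not tested against each other. Nop58 and Nop56, the paired scaffold proteins of box C/D particles, and Fbl, fibrillarin, their methyltransferase, had negative log2 changes, with a median of -0.40. Nop58 measured 7.06 at the lowest, 7.53 at the median and 7.96 at the highest knockout array, and 7.93, 8.13 and 8.47 in the wild type. The groups met at about the same level, with 4 knockout arrays below every wild-type array, and the log2 change was -0.59 (SE 0.17, 1.51-fold lower, limma adjusted p = 0.0886). Nop56 ranged from 9.45 over 9.74 to 10.1 in the knockout and from 9.94 over 10.1 to 10.5 in the wild type. Its groups overlapped through knockout arrays 4 and 5, and its log2 change was -0.40 (SE 0.15, limma adjusted p = 0.157). Fbl had a log2 change of -0.31 (SE 0.20, limma adjusted p = 0.396), with knockout arrays 4 and 5 near the top of the wild-type range. Of the box H/ACA proteins, Gar1 ranged from 8.53 over 8.79 to 8.95 in the knockout and from 8.88 over 9.25 to 9.41 in the wild type. 5 of the 6 wild-type arrays lay above every knockout array, and its log2 change was -0.44 (SE 0.13, 1.35-fold lower, limma adjusted p = 0.0877). The log2 changes of its partners in the same particle, Nhp2 and Nop10, were -0.07 (95% interval from -0.45 to 0.31) and 0.03 (from -0.28 to 0.34), intervals that overlap that of Gar1 (from -0.71 to -0.16).

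**Figure D2:**
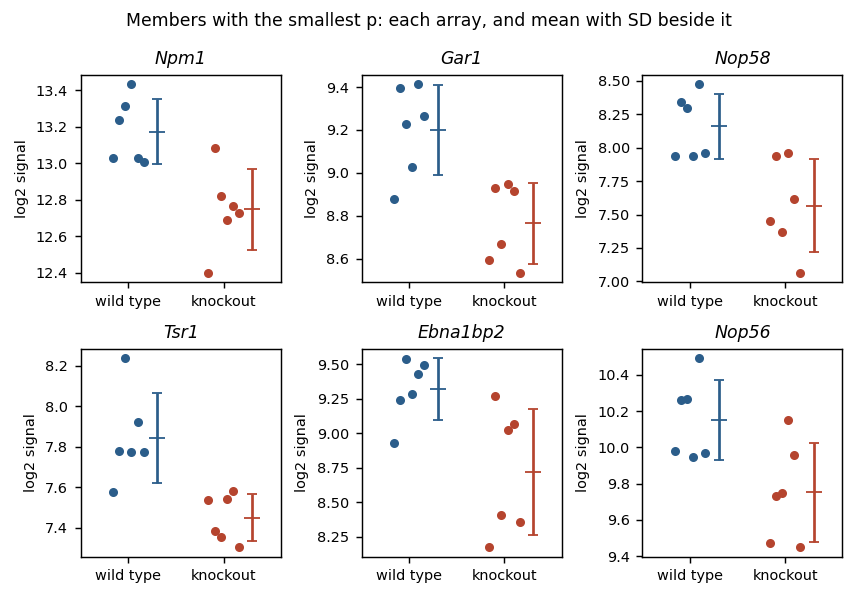
Log2 signal on each array for the 6 nucleolar genes with the smallest p for genotype, with the mean and SD (n = 6) beside the points; the vertical axes differ and do not start at 0. Every gene has a lower knockout mean, and in each gene the highest knockout array reaches into the wild-type range.

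Among the small subunit factors, 7 of 9 tested genes had a negative log2 change, with a median of -0.23. Tsr1, a late maturation factor of the small subunit, ranged from 7.30 over 7.46 to 7.58 in the knockout and from 7.58 over 7.78 to 8.24 in the wild type. The groups touched at a single value, since wild-type array 1 lay just below the highest knockout array, and the log2 change was -0.39 (SE 0.12, 1.31-fold lower, limma adjusted p = 0.105). Wdr43, a subunit of the early transcription-coupled part of the processome, had a log2 change of -0.27 (SE 0.17, limma adjusted p = 0.381). Of the other small subunit factors, Utp18, Utp20 and Wdr75 had log2 changes of -0.34, -0.30 and -0.23, and Imp4 and Noc4l had -0.15 and -0.06. Bysl, which is needed to release the small subunit precursor, was the one gene of the 36 that was higher in the knockout by more than 0.2 on the log2 scale, at 0.33 (SE 0.17, 95% interval from -0.03 to 0.70, limma adjusted p = 0.299), and Heatr1 had a log2 change of 0.13.

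Among the large subunit factors, 13 of 14 tested genes had a negative log2 change, with a median of -0.20. Ebna1bp2, an assembly factor of the large subunit, ranged from 8.17 over 8.72 to 9.27 in the knockout and from 8.93 over 9.36 to 9.54 in the wild type. Knockout arrays 1, 3 and 6 lay below every wild-type array and the other three lay within their range, and the log2 change was -0.60 (SE 0.20, 1.52-fold lower, limma adjusted p = 0.128). Ddx18, an RNA helicase, ranged from 7.26 over 8.01 to 8.43 in the knockout and from 8.05 over 8.38 to 8.70 in the wild type. It overlapped between the groups in the same way, with a log2 change of -0.47 (SE 0.21, limma adjusted p = 0.243). Nop2, a methyltransferase of the large ribosomal RNA, had a log2 change of -0.37 (SE 0.18, limma adjusted p = 0.283), and Gnl3, nucleostemin, a nucleolar GTPase, had -0.19 (SE 0.12, limma adjusted p = 0.377). The 3 proteins of the PeBoW complex, which is required for processing of the large subunit RNAs, were close to 0 or lower: Pes1 at -0.17, Wdr12 at -0.21 and Bop1 at -0.004 (95% interval from -0.74 to 0.74). The remaining genes of this role ran from -0.28 for Nip7 to 0.06 for Ppan. Of the 20 nucleolar genes with more than 1 tested probe set, 4 had probe sets of opposite sign, among them Ebna1bp2, whose second probe set had a log2 change of 0.16, and Ddx21, Grwd1 and Heatr1.

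The nucleolar genes moved together from array to array, and the arrays of one genotype were not alike. For each array, the median deviation of the 36 genes from their own means over the 12 arrays was taken. Its mean was -0.127 ± 0.252 (SD) over the 6 knockout arrays and 0.107 ± 0.164 (SD) over the 6 wild-type arrays. Knockout arrays 1, 3 and 6 were low, at -0.39, -0.22 and -0.43, and on array 6 none of the 36 genes was above its own mean. Knockout arrays 2, 4 and 5, at 0.04, 0.11 and 0.13, lay within the wild-type range, and 30 and 28 of the 36 genes were above their own mean on arrays 4 and 5. Wild-type array 1 was the one low array of its group, at -0.14, and the other five lay between 0.01 and 0.28. Arrays 4 and 5 of the knockout were also the pair most alike over all genes, with an SD of their differences of 0.338 on the log2 scale where the next pair had 0.531, and the labels do not say whether they share an animal. With arrays 4 and 5 averaged, 32 of the 36 genes had a lower knockout mean and their median log2 change was -0.32. A fit without both was added after the data were seen. There 35 of the 36 genes had a lower knockout mean and their median log2 change was -0.42. These arrays had the highest values of the knockout, so leaving them out lowers its level and is no separate result. None of the 36 passed the adjusted threshold in limma in either fit, beside 1.83% and 1.88% of all tested genes.

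**Figure D3:**
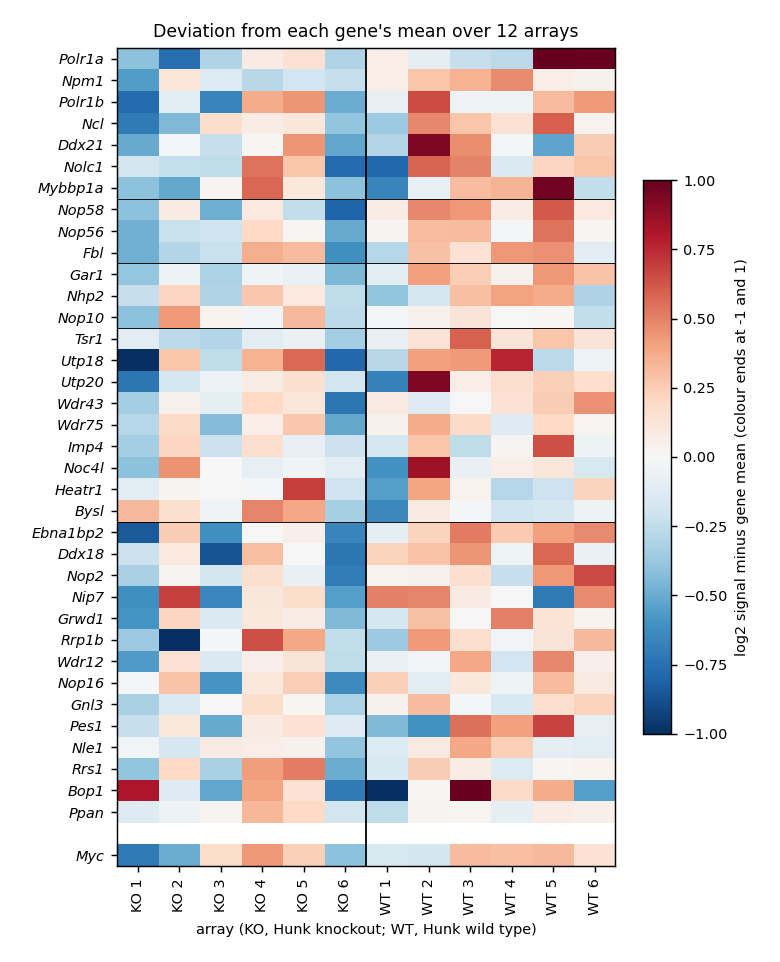
Deviation of each nucleolar gene, and of Myc, from its own mean over the 12 arrays on the log2 scale, in the role groups of the text from top to bottom (colour ends at -1 and 1). Most genes are below their mean on knockout arrays 1, 3 and 6 and above it on knockout arrays 4 and 5 and wild-type arrays 2, 3 and 5.

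Within the groups, pairs of nucleolar genes had a median correlation of 0.46 over the 12 arrays after each group's mean was removed, and 94.1% of the 630 pairs were above 0, beside a median of 0.004 and 50.4% for pairs of all tested genes. The median was 0.63 within the knockout arrays, which include the much alike arrays 4 and 5, and 0.32 within the wild-type arrays. The points share the RNA, the hybridisation and the scaling of each array, so this is a description. The closest pairs were Nolc1 with Bysl at 0.94, Rrs1 with Wdr75 at 0.92 and Polr1b with Rrs1 at 0.91. Bysl, whose group means ran opposite to most of the genes, followed Nolc1 from array to array within the groups.

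Myc itself was not called different between the genotypes. Its probe set ranged from 12.4 over 12.99 to 13.5 in the knockout and from 12.9 over 13.3 to 13.4 in the wild type, and the ranges overlapped, with knockout arrays 1, 2 and 6 below every wild-type array and array 4 above all of them. Its log2 change was -0.25 (SE 0.20, limma adjusted p = 0.49). Whether this probe set reads the transgene, the mouse's own gene or both was not examined. When the genes were fitted on the Myc level with genotype in the same model, 34 of the 36 nucleolar genes had a positive slope, or 94.4%, beside 55.1% of all tested genes. The median slope was 0.33 log2 units per log2 unit of Myc, beside 0.04 for all tested genes. Positive slopes were also found in 63 of 84 other ribosome biogenesis factors (median 0.20) and 24 of 32 Myc targets outside the nucleolus (median 0.19). They were found in 20 of 41 ribosomal protein genes (median -0.002) and 8 of 24 cell division genes (median -0.15). As with the correlations, the genes share the RNA, the hybridisation and the scaling of each array. None passed the adjusted threshold in limma, and neither did any other tested gene (0% in either direction). Without adjustment, 7 of the 36 had a limma p under 0.05 with a positive slope, beside 4.6% of all genes, and none with a negative one. These 7 were Mybbp1a at 1.03 (SE 0.27, limma adjusted p = 0.355), Utp18 at 0.89, Rrp1b at 0.87, Fbl at 0.72, Ncl at 0.70, Nop56 at 0.44 and Ppan at 0.34. That count of 7 was 13 without knockout array 2, 4 without knockout array 1, 5 or 6 and 3 without knockout array 4. It was 3 with knockout arrays 4 and 5 averaged and 1 with the replicate block, where 28 of the 36 slopes were positive, beside 56.7% of all tested genes. The share of all tested genes under that unadjusted p was not taken in these fits. The counts are therefore not set against a background and show only that the 7 depend on single arrays.

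**Figure D4:**
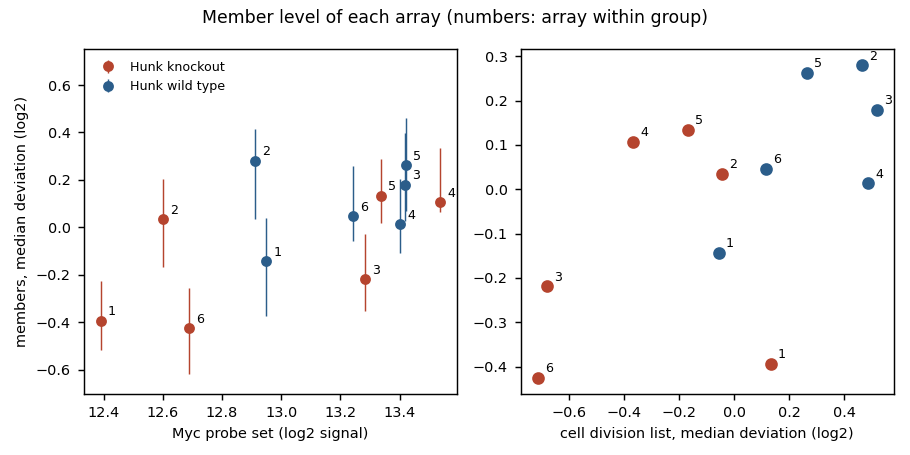
Median deviation of the 36 nucleolar genes on each array, with the 25th to 75th percentile over genes as bars on the left, against the log2 signal of Myc (left) and against the median deviation of 24 cell division genes (right). Knockout arrays 1 and 6 are low for both the nucleolar genes and Myc, while knockout array 3 is low for the nucleolar genes at a Myc signal of 13.3. Wild-type array 2 has the highest nucleolar value, 0.28, at the lowest Myc signal of its group, 12.9. Knockout array 2 lies at 0.04 with a Myc signal of 12.6.

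With the Myc level in the model, each difference by genotype shifted by the gene's Myc slope times the Myc difference of -0.25. The size of each shift is thus fixed by the slopes, none of which passed the adjusted threshold, and is no separate result. Of the 7 genes with an unadjusted p under 0.05 for genotype, Nop56 was also among the 7 for the Myc slope, and its log2 change by genotype was -0.29 with Myc in the model against -0.40 without it. Npm1, Tsr1, Gar1 and Nop58 had Myc slopes of 0.10, 0.19, 0.20 and 0.22, and their log2 changes were -0.40, -0.35, -0.39 and -0.54 with Myc in the model, against -0.43, -0.39, -0.44 and -0.59 without it. Ebna1bp2 and Ddx18, with slopes of 0.44 and 0.17, had -0.49 and -0.43, against -0.60 and -0.47. Of the other genes among the 7 for the Myc slope, Ncl, Fbl and Utp18 had log2 changes of -0.21, -0.13 and -0.11 with Myc in the model, against -0.39, -0.31 and -0.34. Mybbp1a and Rrp1b had 0.05 and -0.006, against -0.21 and -0.22, and Ppan had 0.15, against 0.06. Over the 36 genes the median log2 change by genotype was -0.15 with Myc in the model, and 28 of the 36 stayed below 0. The slope was positive in 35 of the 36 genes within the knockout arrays alone, with a median of 0.34, and in 27 of the 36 within the wild-type arrays alone, with a median of 0.22. The difference between these slopes, tested as an interaction in limma, passed the adjusted threshold in none of the genes, and Pes1 alone had an unadjusted p under 0.05 (limma adjusted p = 0.603).

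Other factors of ribosome production, listed apart from the 40 genes, had a similar median. Of 84 tested factors, 63 had a negative log2 change, with a median of -0.21. 2 of the 84 were called lower and 0 higher, where 1.68% of all tested genes were called lower and 1.66% higher. Ruvbl1, an AAA-family ATPase used in assembling box C/D particles among many other complexes, fell by 1.04 on the log2 scale (SE 0.18, limma adjusted p = 0.0113). Krr1, a small subunit factor, fell by 0.63 (SE 0.14, limma adjusted p = 0.033). Over 27 alternative settings, 12 of them leaving out 1 array, Ruvbl1 was called in 24 and Krr1 in 13. The rest of the RNA polymerase I machinery had a median of -0.12 over 16 genes, 13 of them negative and none past the threshold. The structural proteins of the cytosolic ribosome, in contrast to the factors that assemble it, had a median log2 change of 0.06 over 41 tested genes, with 26 above 0 and none past the threshold in either direction, and 1 in each direction at an unadjusted limma p under 0.05.

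Myc targets outside the nucleolus had a median of -0.25 over 32 tested genes, 26 of them negative. 1 was called lower and 1 higher, where 1.68% of all tested genes were called lower and 1.66% higher. Among them Fkbp4, an HSP90 co-chaperone, fell by 0.60 on the log2 scale (SE 0.14, limma adjusted p = 0.045), and Ldha, lactate dehydrogenase A, rose by 0.61 (SE 0.13, limma adjusted p = 0.025). Over the same 27 settings Fkbp4 was called in 8 and Ldha in 21. The cell division genes were lower by more: all 24 tested had a negative log2 change, with a median of -0.61. 4 of the 24, beside 1.68% of all tested genes, were called lower. These were Cdc20, which activates the anaphase-promoting complex, at -0.82, Kif11, a spindle motor, at -0.71, Cenpf, a kinetochore protein, at -1.16, and Mad2l1, a spindle checkpoint protein, at -0.89 (limma adjusted p from 0.0118 to 0.0355), and of the 27 settings they were called in 22, 23, 23 and 13. On each array, the median deviation of the cell division genes had a mean of -0.307 ± 0.343 (SD) over the 6 knockout arrays and 0.299 ± 0.233 (SD) over the 6 wild-type arrays. Knockout arrays 3 and 6 were low for both the cell division and the nucleolar genes, whereas array 1 was low for the nucleolar genes at a cell division value of 0.13 and array 4 was above the mean for the nucleolar genes at a cell division value of -0.37.

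**Figure D5:**
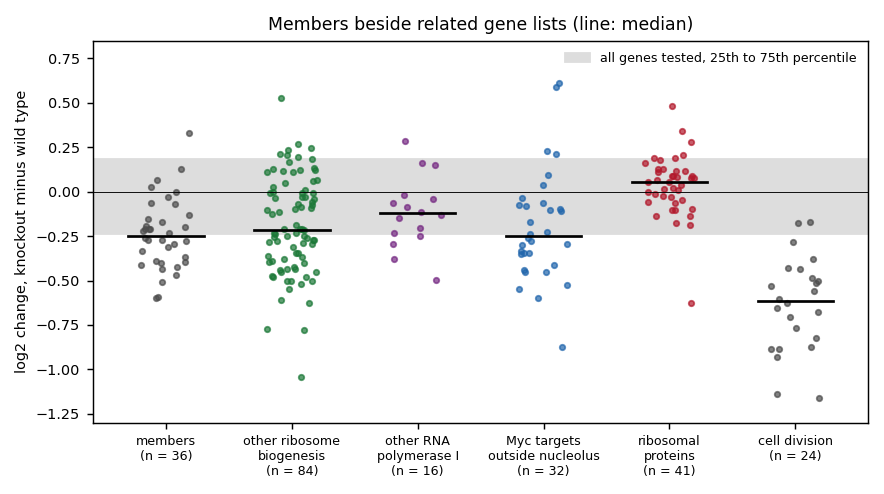
Log2 change (Hunk knockout minus wild type) of each tested gene in the nucleolar set and in 5 related lists, with the median as a line and the 25th to 75th percentile of all tested genes as a grey band. The nucleolar set and the other biogenesis factors centre near -0.25 and -0.21, the ribosomal proteins near 0.06 and the cell division genes near -0.61.

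Other measures differed between the groups alongside the nucleolar genes. The beta-actin control probe sets had a 3′ minus 5′ difference of 1.51 ± 0.15 (SD) over the 6 knockout arrays and 1.29 ± 0.05 (SD) over the 6 wild-type arrays (two-sided exact permutation p = 0.0108), a measure of RNA quality and labelling. The same difference for the Gapdh control was also higher in the knockout, at 0.200 ± 0.076 (SD) against 0.095 ± 0.083 (SD) (two-sided exact permutation p = 0.0455). With the beta-actin difference in the model the median log2 change of the 36 genes was -0.38 and 33 of 36 were below 0. Luminal epithelial markers went both ways: of 10 tested genes 7 had a higher mean in the knockout and 3 a lower one. Cd24a, Krt19 and Elf5 were called higher, 3 of the 10 beside 1.66% of all tested genes. Of the 27 settings they were called in 21, 12 and 5. Kit, a receptor of luminal progenitors, had a log2 change of -2.95 (SE 0.87, limma adjusted p = 0.0876), the second largest of the list in size, and Epcam and Krt18 had -0.19 and -0.17. The summed linear signal of the luminal markers ran from 17381 to 25962 in the knockout and from 13122 to 19890 in the wild type. With the mean of the 13 measured luminal markers in the model, the median log2 change of the 36 genes was -0.27 and 28 of 36 were below 0. In that fit neither second probe set passed the threshold, at log2 changes of -0.55 for Npm1 and -1.11 for Ncl against -0.60 and -0.80 without the markers, and calls over all genes went from 228 to 1. The marker mean includes Cd24a, Krt19 and Elf5, which themselves differed by genotype. The SE of the genotype term was larger in that fit, at 0.20, 0.22 and 0.30 for Npm1, Gar1 and Nop58 against 0.12, 0.13 and 0.17. The lost calls thus go with lower precision, and the part of luminal content in them was not tested.

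Markers of other cell types differed as well, none of them past the adjusted threshold except Ltf. Of 5 tested milk protein genes 4 had a higher mean in the knockout and 1, Csn3, a lower one (log2 change -2.25). Only Ltf of these was called, and it was called in 9 of the 27 settings. Summed linear signals of the milk protein list ran from 1452 to 52992 in the knockout and from 2355 to 27475.5 in the wild type. Fibroblast markers had a higher mean in the knockout in 4 of 4 tested genes, with a median log2 change of 0.68 and the largest in Col3a1 at 0.94 (limma adjusted p = 0.0691), and their summed linear signal ran from 1953 to 4896 in the knockout and from 1415 to 3126 in the wild type. Dcn, Lum and Pdgfra of that list were at background on every array, and Fbln1, which was below the filter, had a log2 change of -0.56. Both tested adipocyte markers were higher, Car3 by 2.36 and Fabp4 by 1.51 on the log2 scale (limma adjusted p = 0.194 and 0.222), with summed linear signals from 157 to 3159 in the knockout and from 69.9 to 355 in the wild type, while Cidec, Lep and Retn were at background on every array. Of 5 tested basal epithelial markers 3 were higher, Krt14 by 2.52 (limma adjusted p = 0.217), Acta2 by 0.24 and Trp63 by 0.13. Krt5 and Krt17 were lower, at log2 changes of -0.56 and -0.18. Summed linear signals of the basal list ran from 634 to 1562 in the knockout and from 471 to 1485 in the wild type. Myh11 and Oxtr were at background on every array. Of the leukocyte markers 7 of 8 tested were lower, 3 of them with an unadjusted limma p under 0.05, with summed linear signals from 1277 to 3248 in the knockout and from 1775 to 3177 in the wild type. Of the skeletal muscle markers only Acta1 was tested, with a log2 change of 0.29 and an SD of 3.56 in the knockout and 1.96 in the wild type. Summed linear signals of the muscle list ran from 44.0 to 6193 in the knockout and from 42.6 to 396 in the wild type. No endothelial marker passed the filter, and Pecam1, Cdh5, Kdr and Tie1 were at background on every array. The part of these cell types in the nucleolar difference was not tested.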

How the data were processed

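Total RNA of mammary tumours was hybridised to 12 Affymetrix arrays, 6 of Hunk knockout and 6 of Hunk wild-type tumours, grouped by the sample titles. The deposited values are log2 signals per probe set, made with GCRMA per the submitters' processing notes; its version, and any filter the authors applied, are not given in the sources used here. They were used as deposited: array medians ran from 3.87 to 4.10, and scaling was varied only in the alternatives. Genes were named from the platform annotation: 20380 of 22690 probe sets list 1 symbol, 691 list several and 1606 are not in the annotation. The probe set with the highest mean over 12 arrays stood for a gene, and genes above the median probe-set mean (log2 3.98) were tested with limma 3.58.1 in R 4.3.3 (lmFit, eBayes with trend, genotype as the only term). P-values were adjusted by Benjamini-Hochberg over all tested genes, or over all tested probe sets in the probe-set fit, at 0.05. Single values were compared by exact two-sided permutation tests, whose smallest p for 6 against 6 is 0.00216. Array data have no read depth; the number of arrays limits precision. The scripts were tested on simulated data.

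The nucleolar genes and the other lists were chosen with earlier results of these data known. Genes given with full statistics were the 8 with the smallest p, the one with the highest mean of each role, any that passed a threshold, Myc and Hunk, and from the other lists those past the threshold; Ncl, Bysl, the second probe sets and the remaining genes were named after their values were seen. The alternatives covered the filter, the variance model, scaling, array weights, probe-set choice, covariates, a replicate block and leaving out arrays.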

Additional observations from a re-analysis of the deposited data

Results flagged for a closer look

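2 of 78 groups of 6 arrays had an array far from the other five by Dixon's 95% criterion, which chance alone passes in about 1 group in 20. For Heatr1, a small subunit processing factor, knockout array 5 had a log2 signal of 6.91 while the others lay between 6.02 and 6.24. For Hunk, knockout array 4 had a log2 signal of 2.60 while the others lay between 2.94 and 3.06, all at array background.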

How the results depend on the processing

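Over 27 alternatives the median log2 change of the 36 nucleolar genes stayed below 0, from -0.42 without knockout replicates 4 and 5, an alternative added after seeing the data, to -0.15 with the Myc level in the model, and from -0.33 to -0.18 when 1 array was left out; between 28 and 35 genes were below 0. The number of the 36 genes past the threshold ran from 0 to 1. The 1 was Npm1, under median centring, under array weights and with the mean of all probe sets of a gene. In these fits 2.84%, 5.71% and 3.5% of all tested genes were called, in that order. It was also Npm1 without knockout replicate 2, where 2.7% of all tested genes were called. The number was 0 in every other alternative. On the Myc level it was 3 with array weights (Fbl, Mybbp1a and Rrp1b, of 114 genes called in all) and 0 otherwise. Of the probe sets, 2 passed the threshold, against 3 under quantile normalization, median centring and array weights, 1 with the beta-actin difference in the model, 0 with the luminal markers, 1 with knockout replicates 4 and 5 averaged, 0 without both of them, and from 0 to 3 when 1 array was left out; the arrays whose removal ended both calls were knockout 4 and 5 and wild type 3, 4 and 5. The share of all probe sets called was not taken in these alternatives. The cause of these differences was not tested.

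With the replicate number as a block, the median was -0.25, 0 genes and 2 probe sets passed, and 69 of all genes were called against 228 without it, so the block changed no call on the nucleolar genes. Same-numbered arrays correlated at -0.02 to 0.14, so the numbers are not taken to pair the arrays. Calls over all genes were also 112 without the filter, 390 with array weights, 72 with the beta-actin difference (25 lower and 47 higher), 1 with the luminal markers, 125 with knockout replicates 4 and 5 averaged, 128 without both and 95 to 212 with 1 array left out. Median centring gave 126 lower and 68 higher, against 115 and 113.

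The sign of the log2 change held in all alternatives for 23 of the 36 genes. It reversed with the luminal markers in the model for Nhp2 (0.0963), Rrs1 (0.00969), Nop16 (0.156), Pes1 (0.0644), Imp4 (0.0991) and Heatr1 (-0.199). It reversed with the Myc level in the model for Nhp2 (0.0356), Mybbp1a (0.0495), Rrs1 (0.0739) and Bop1 (0.0784). With the beta-actin difference in the model it reversed for Nop10 (-0.247), Ppan (-0.0258) and Bop1 (0.532). Without knockout replicates 4 and 5 it reversed for Nop10 (-0.0399), Ppan (-0.0514) and Heatr1 (-0.00424). It further reversed for Nop10 under median centring (-0.0296), Bop1 under quantile normalization (0.0411), Rrs1 under array weights (0.122), and Ddx21 (0.0304) and Nip7 (0.0203) with the mean of all probe sets. Leaving out 1 array gave values on both sides of 0 for Nhp2 (-0.155 to 0.0038), Nop10 (-0.0544 to 0.112), Rrs1 (-0.135 to 0.0662), Noc4l (-0.192 to 0.0987) and Bop1 (-0.205 to 0.194).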
